A study of Mus musculus with 4 samples.

Results

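Among villus fibroblasts of the mouse small intestine, the cells described here held transcripts of at least 2 of the genes Mmp10, Cxcl9, Cxcl5, Saa3, Sertm1 and P2rx1. A cell counted as a villus cell when it had a UMI (a unique molecular identifier, the count of 1 captured transcript) of Lpl or Fgfr2, none of Sox6 and Grem1, and UMIs of fewer than 2 genes in each of the sets Inmt, Penk, Vit, Scara5 and Chodl, Dner, Thbs2, Ptn. The cells were thus selected by measured values of these genes, and of 4678 villus cells among 16891 10X Genomics cells 638 met the rule (13.6% of the villus cells), 105 in 10X library 1 and 533 in 10X library 2. They are called 6-gene cells below and are compared with the 2982 villus cells without a UMI of any of the 6 genes, called negative cells, 416 and 2566 per library. The other 1058 villus cells, 157 and 901 per library, held exactly 1 of the genes.

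Both libraries came from wild type C57Bl/6 mice, male adults 8 weeks old by the sample labels, with no treatment named. The small intestine was digested with Liberase TL, and the sort kept live cells that carried gp38 (PDPN, podoplanin) and lacked the leukocyte marker CD45, the endothelial marker CD31 and the epithelial marker EpCAM, which were then captured in droplets. Because of this sort the libraries hold stromal cells that carry podoplanin. How many mice gave each library is not stated, so the p-values do not measure the spread between mice. They rest on how unevenly the classes of cells differ between these 2 libraries, with variances pooled in part over all genes. A small p-value can therefore stand beside a large SD of the 2 libraries. Library 1 held 2547 cells with a median of 8757 UMIs and library 2 held 14344 cells with a median of 6874 UMIs. The deposited gene table covered 23.6% and 22.6% of the UMIs per library, and 7 cell barcodes occurred in both libraries (0.275% of the barcodes of library 1). Scrublet marked 3 cells of library 1 (0.118%, too few for the caller to have worked there) and 518 of library 2 (3.61%) as doublets, and none were removed in the main analysis.

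Fibroblasts of the villus core lie close to the epithelium, to capillaries and to immune cells of the lamina propria. They make matrix, retinoid-handling enzymes and secreted signals. Chemokines are small secreted proteins that draw leukocytes: Cxcl9 and Cxcl10 act on T cells through CXCR3, Cxcl2 and Cxcl5 act on neutrophils through CXCR2, and Ccl2 draws monocytes. Of the other genes of the rule, Mmp10 encodes stromelysin 2, a secreted protease of the matrix, Saa3 an acute phase protein, P2rx1 an ATP-gated ion channel and Sertm1 a small membrane protein. Interferon raises a further group of genes, among them the guanylate-binding proteins (Gbp), and NF-kB is a transcription factor of inflammatory signalling.

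The defining markers of fibroblasts were present and those of the sorted-out cells were at or near 0. Col1a1 and Col3a1, which encode fibrillar collagens, stood at 40.6 and 70.3 UMIs per 10,000 UMIs in the 6-gene cells of library 1 and at 33.2 and 64.8 in library 2. The gene for CD45, Ptprc, had no UMI in these cells in either library, Epcam stood at 0 and 0.0417, and Pecam1 (CD31) at 0 and 0.0235 UMIs per 10,000. Adamdec1, a protease gene of villus fibroblasts that the rule did not use, was the next check: it stood at 121 and 160 UMIs per 10,000, against 88.2 and 108 in negative cells (log2 difference 0.51 ± 0.08, SD, n = 2 libraries; limma adjusted p = 0.000377). Levels here and below are UMIs of a gene summed over the cells of a class and library, divided by the summed total UMIs of those cells and multiplied by 10,000.

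Because the rule chose the 6-gene cells by these genes, their levels in these cells are a description. Per 10,000 UMIs the cells held 3.94 and 5.74 Mmp10 UMIs in library 1 and library 2, 4.15 and 5.66 of Cxcl9, 4.04 and 5.03 of Cxcl5, 5.77 and 3.05 of Saa3, 1.52 and 1.6 of Sertm1 and 1.22 and 1.47 of P2rx1. The 3 most frequent genes were Sertm1 (362 of 638 cells), Mmp10 (359) and P2rx1 (326), ahead of Cxcl5 (294), Cxcl9 (225) and Saa3 (73). Exactly 2 genes, the threshold of the rule, were found in 365 cells and 3 in 203, whereas 53 held 4, 14 held 5 and 3 cells held all 6. Cells with exactly 1 gene, just outside the rule, held Mmp10 at 0.368 and 0.517 UMIs per 10,000, Cxcl9 at 0.990 and 0.751 and Cxcl5 at 1.04 and 1.47.

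The 6 genes did not occur together evenly, and Mmp10, Sertm1 and P2rx1 stood out as a trio found in the same cells. Of villus cells with P2rx1 in library 2, 55.4% also held Mmp10 and 50.3% Sertm1, whereas of villus cells without P2rx1 5.97% held Mmp10 and 7.91% Sertm1. In library 1 the corresponding shares were 47.9% and 47.9% with P2rx1 against 6.12% and 8.43% without it. Of villus cells with Cxcl9 in library 2, 29.4% held Cxcl5 and 10.6% Saa3 (27.0% and 8.11% in library 1), against 13.7% and 2.06% of those without Cxcl9 (13.2% and 1.49%). Cxcl9, Cxcl5 and Saa3 did not form a block of this kind. Of villus cells with P2rx1 in library 2, 25.3% held Cxcl5 and 16.3% Cxcl9 (16.4% and 16.4% in library 1), and of those with Cxcl5 18.4% held Sertm1 and 17.9% Cxcl9 (17% and 20% in library 1). Of the 15 villus cells with Saa3 in library 1, 40% held Mmp10, the same share Cxcl9 and 46.7% Cxcl5. Of the 114 such cells in library 2, 34.2% held Cxcl9 and 28.9% Cxcl5, against 19.3% that held Mmp10. For the descriptions below the genes were divided, after their values were seen, into the Mmp10 trio and the other 3, called the chemokine trio. These are shares over cells of the same library, which also share depth, so they carry no p-value.

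**Figure D1:**
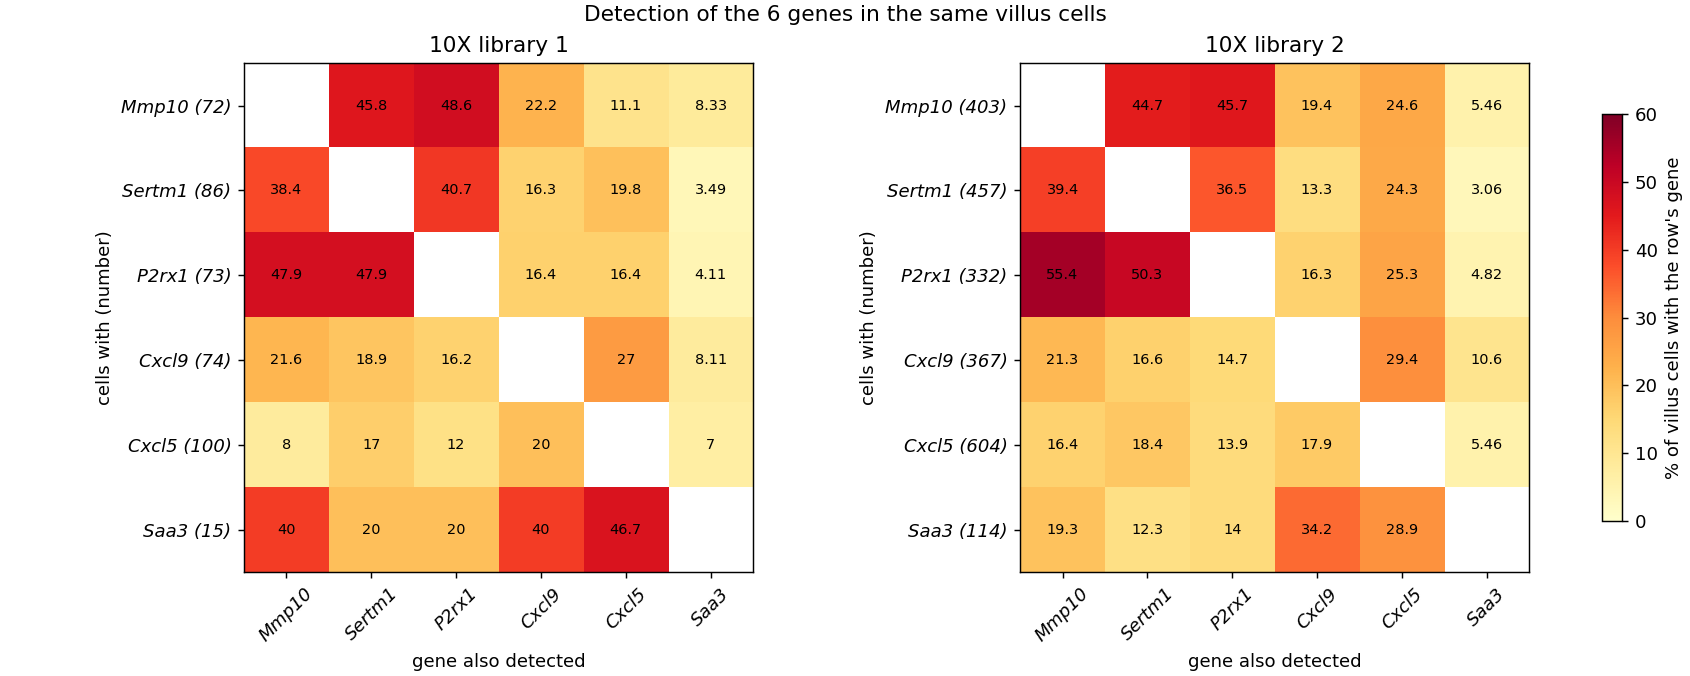
Share of villus cells with a UMI of the gene in the row (number of cells in brackets) that also held a UMI of the gene in the column, in percent, for each 10X library. The block of Mmp10, Sertm1 and P2rx1 at the upper left holds shares of 36.5% to 55.4%.

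The name chemokine-rich covered the cells unevenly. Of the 638 cells, 233 (36.5%) held only Mmp10, Sertm1 or P2rx1 and no UMI of Cxcl9, Cxcl5 or Saa3, 311 (48.7%) held genes of both trios and 94 (14.7%) held only Cxcl9, Cxcl5 or Saa3. No UMI of either chemokine of the rule was found in 247 cells (38.7%). The most frequent single combination was Mmp10 with Sertm1 and P2rx1 (86 cells), followed by Cxcl9 with Cxcl5 (62 cells) and Cxcl5 with Sertm1 (51 cells). The 3 kinds held 45, 47 and 13 cells in library 1 and 188, 264 and 81 in library 2.

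The sequence before the transcription start is shown for the 3 genes of the rule whose products are secreted and that the table of promoters holds, and for the chemokine genes Cxcl2, Cxcl10 and Cxcl14 that are described next. Each run is the 250 bases before the start, from RefSeq (GRCm38.p6), written 5′ to 3′ on the strand of the gene. Capitals mark matches, on either strand, to GGNNTTTCC (a kappa-B-like motif), TTCNNNGAA (a GAS-like motif of STAT factors), TTCNNTTTC (part of an interferon-stimulated response element) and TGANTCA (an AP-1 motif). No 2 of the marked matches overlap.
Mmp10, chr9:7502092-7502341, plus strand: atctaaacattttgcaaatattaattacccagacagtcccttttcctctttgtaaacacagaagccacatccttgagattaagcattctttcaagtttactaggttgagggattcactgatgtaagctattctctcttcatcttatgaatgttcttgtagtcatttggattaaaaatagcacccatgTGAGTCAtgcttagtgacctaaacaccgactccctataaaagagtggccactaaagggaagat
Cxcl9, chr5:92328080-92328329, minus strand: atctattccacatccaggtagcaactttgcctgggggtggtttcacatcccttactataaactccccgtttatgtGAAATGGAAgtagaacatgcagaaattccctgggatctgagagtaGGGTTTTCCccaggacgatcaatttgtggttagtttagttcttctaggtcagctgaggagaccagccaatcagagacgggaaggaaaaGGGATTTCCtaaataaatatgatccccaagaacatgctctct
Saa3, chr7:46715677-46715926, minus strand: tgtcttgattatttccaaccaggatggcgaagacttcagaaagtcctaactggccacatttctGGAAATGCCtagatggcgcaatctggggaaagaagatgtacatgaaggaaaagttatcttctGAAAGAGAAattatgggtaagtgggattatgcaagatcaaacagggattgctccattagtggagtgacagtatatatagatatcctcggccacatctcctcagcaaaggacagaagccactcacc
Cxcl2, chr5:90903649-90903898, plus strand: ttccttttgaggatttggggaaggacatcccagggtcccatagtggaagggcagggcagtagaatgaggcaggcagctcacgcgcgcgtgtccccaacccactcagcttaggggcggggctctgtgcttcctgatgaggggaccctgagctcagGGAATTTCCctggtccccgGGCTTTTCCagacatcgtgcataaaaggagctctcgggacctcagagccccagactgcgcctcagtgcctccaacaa
Cxcl10, chr5:92348890-92349139, minus strand: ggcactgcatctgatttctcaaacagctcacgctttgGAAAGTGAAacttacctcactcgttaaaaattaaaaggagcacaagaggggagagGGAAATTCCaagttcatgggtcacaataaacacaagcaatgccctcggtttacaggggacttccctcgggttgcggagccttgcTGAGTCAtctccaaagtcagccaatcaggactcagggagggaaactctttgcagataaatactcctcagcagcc
Cxcl14, chr13:56296552-56296801, minus strand: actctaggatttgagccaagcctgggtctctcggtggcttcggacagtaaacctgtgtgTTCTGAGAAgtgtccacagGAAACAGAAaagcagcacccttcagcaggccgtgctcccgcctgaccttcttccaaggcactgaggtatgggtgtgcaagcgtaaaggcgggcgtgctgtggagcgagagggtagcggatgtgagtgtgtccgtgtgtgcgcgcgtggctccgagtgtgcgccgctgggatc

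The kappa-B-like letters were found in 4.93% of the 32841 promoters searched, the GAS-like letters in 7.02%, the interferon response letters in 7.13% and the AP-1 letters in 6.75%. Cxcl9 held 2 kappa-B-like matches, which began 130 and 42 bases before the start, Cxcl2 held 2 (96 and 77 bases), and Cxcl10 and Saa3 held 1 each (158 and 187 bases). P2rx1, whose sequence is not shown, held 1 as well (19 bases). The interferon response letters were present in Cxcl9 (175 bases), Cxcl10 (213 bases), Saa3 (125 bases) and Cxcl14 (172 bases). Mmp10 held an AP-1 match 63 bases before its start and Cxcl10 one 74 bases before it, whereas Cxcl14 held a GAS-like match at 191 bases and no kappa-B-like one. Of 12 genes looked for, 10 had an entry, and Cxcl5 and Gbp4 had no entry. Sertm1, Igfbp3 and Wnt4 had an entry but held no match to any of these motifs. A match is a description of letters and not of binding.

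Of 2039 genes tested that the rule did not use (a UMI in at least 1% of villus cells of each library), 677 passed an adjusted p of 0.05 between 6-gene and negative cells, which is 33.2% of them. The test was limma on log2(UMIs per 10,000 + 0.1) with the library as a block and Benjamini-Hochberg adjustment over all genes tested. Higher in the 6-gene cells were 322 genes (15.8%) and lower were 355 (17.4%), all 677 had the same sign in both libraries, and 87 and 112 of them differed by more than 1 on the log2 scale. The median difference of all genes was 0.02. Of the 322 higher genes, 32 had a UMI in under 1% of negative cells in at least 1 library and so met the filter through cells with the genes of the rule, Serpina3f, Mcm5, Cxcl2 and Cx3cl1 among them. The 6-gene cells were deeper (median 10071 and 6963 UMIs per cell, against 6994 and 5401 in negative cells). When negative cells were matched to them 1 to 1 on total UMI, 606 genes passed, 569 of them shared with the 677. When every cell was thinned to 2000 UMIs before the rule was applied, 260 passed (243 shared), 407 passed without the library as a block, and on means of the deposited log values 417 of 724 calls were higher, against 322 of 677.

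**Figure D2:**
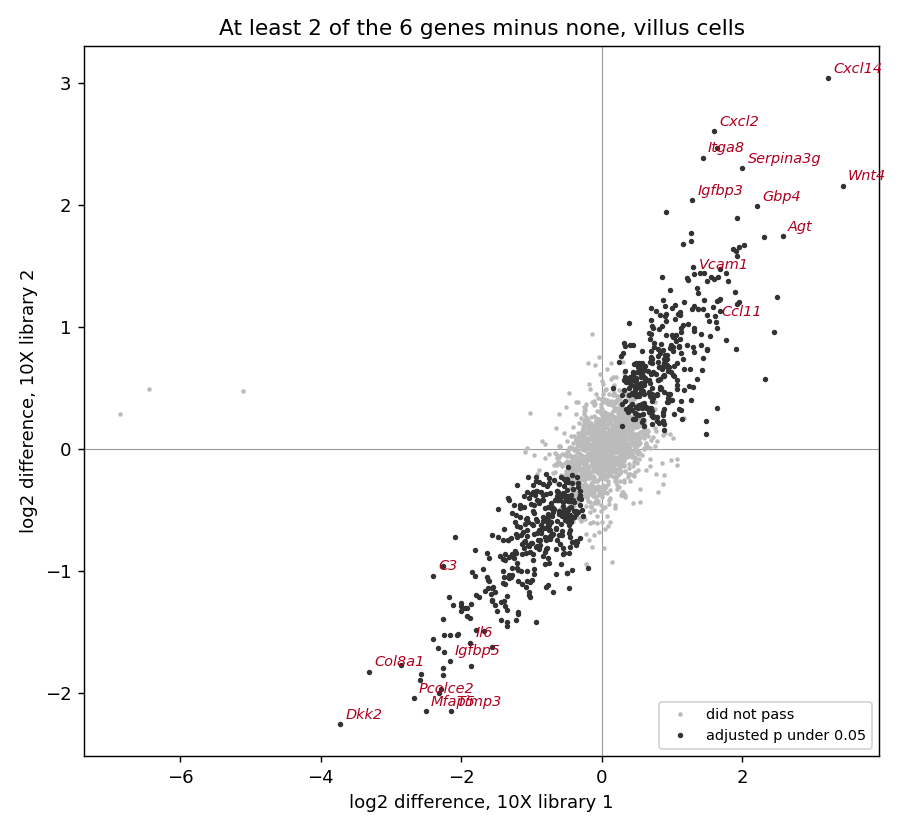
Difference between 6-gene and negative villus cells in 10X library 1 (x axis) and 10X library 2 (y axis), both as log2(UMIs per 10,000 + 0.1), for each gene tested that the rule did not use. Genes that passed the test (dark points) lie at the lower left and upper right, with Cxcl14 and Wnt4 highest and Dkk2 lowest.

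Of 12 chemokine genes outside the rule that were tested, 8 were higher in the 6-gene cells, none was lower and 4 did not pass (15.8% of all genes were higher). Of the 8, Cxcl2 and Cx3cl1 were found in 0.974% and 0.779% of negative cells of library 2 and met the filter there through the cells where they are high. Cxcl14, a chemokine constitutively made in many epithelia and stromal cells, showed the largest difference among the genes that passed. It stood at 5.57 and 4.19 UMIs per 10,000 in the 6-gene cells of library 1 and library 2, at 1.63 and 0.899 in cells with exactly 1 of the 6 genes and at 0.507 and 0.421 in negative cells (log2 difference 3.13 ± 0.13, SD, n = 2 libraries; limma adjusted p = 3.27e-07). The ratio was 11 and 9.96. Cxcl2 stood at 0.675 and 0.881 against 0.156 and 0.0609 (2.10 ± 0.71; adjusted p = 6.25e-05), with a UMI in 5.71% and 6.75% of the 6-gene cells. Its relative Cxcl1, at 0.896 and 0.991 against 0.901 and 1.16, did not pass (limma adjusted p = 0.542). Cxcl10 was at 2.62 and 3.96 against 1.55 and 1.92 (0.86 ± 0.21; limma adjusted p = 0.000235, and 0.0615 without the block). It was found in 18.1% and 28.5% of the 6-gene cells against 18.3% and 22.2% of negative cells, and 6-gene cells without Cxcl9 held 0.523 and 1.06, below negative cells.

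Among CC chemokines, 3 of 6 tested rose and none fell, against 15.8% of all genes higher and 17.4% lower (median log2 difference 0.72, against 0.02 for all genes). Ccl11, which draws eosinophils, was the most abundant, with 10.5 and 10.0 UMIs per 10,000 against 3.33 and 4.81 (1.33 ± 0.41, SD, n = 2; limma adjusted p = 5.11e-05). Ccl2 stood at 4.63 and 4.71 against 1.55 and 2.22 (1.28 ± 0.33; adjusted p = 0.000146), but did not pass on means of the deposited log values (adjusted p = 0.104). It was found in 16.2% and 29.5% of the 6-gene cells against 15.4% and 25.7% of negative cells, and 6-gene cells without Cxcl9 held 0.304 and 1.2, below negative cells. Ccl8 was at 0.262 and 0.284 against 0.0716 and 0.135 (0.89 ± 0.26; limma adjusted p = 0.00287), and in the cells with no UMI of the heat shock genes Hspa1a and Hspa1b it did not pass (0.765). Ccl7, Ccl19 and Ccl25 did not pass. Cxcl13, the B cell chemokine, stood at 1.55 and 1.30 against 0.192 and 0.489 (1.88 ± 0.88; adjusted p = 0.0188), yet cells with exactly 1 gene held 4.07 in library 1 and 0.805 in library 2, and it did not pass with a pseudocount of 1 (0.114) or without the block (0.0817). Cx3cl1 rested on 18 and 16 UMIs in the 6-gene cells (adjusted p = 0.0234) and did not pass when cells of high doublet score were left out (adjusted p = 0.182). Of the receptors that take up chemokines, Ackr3 was higher (1.89 and 2.18 against 1.41 and 1.41; 0.50 ± 0.14; limma adjusted p = 0.00555). Ackr4 was lower, with 0 UMIs in library 1 and 16 in library 2 (0.0417 per 10,000) against 0.286 and 0.249 in negative cells.

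**Figure D3:**
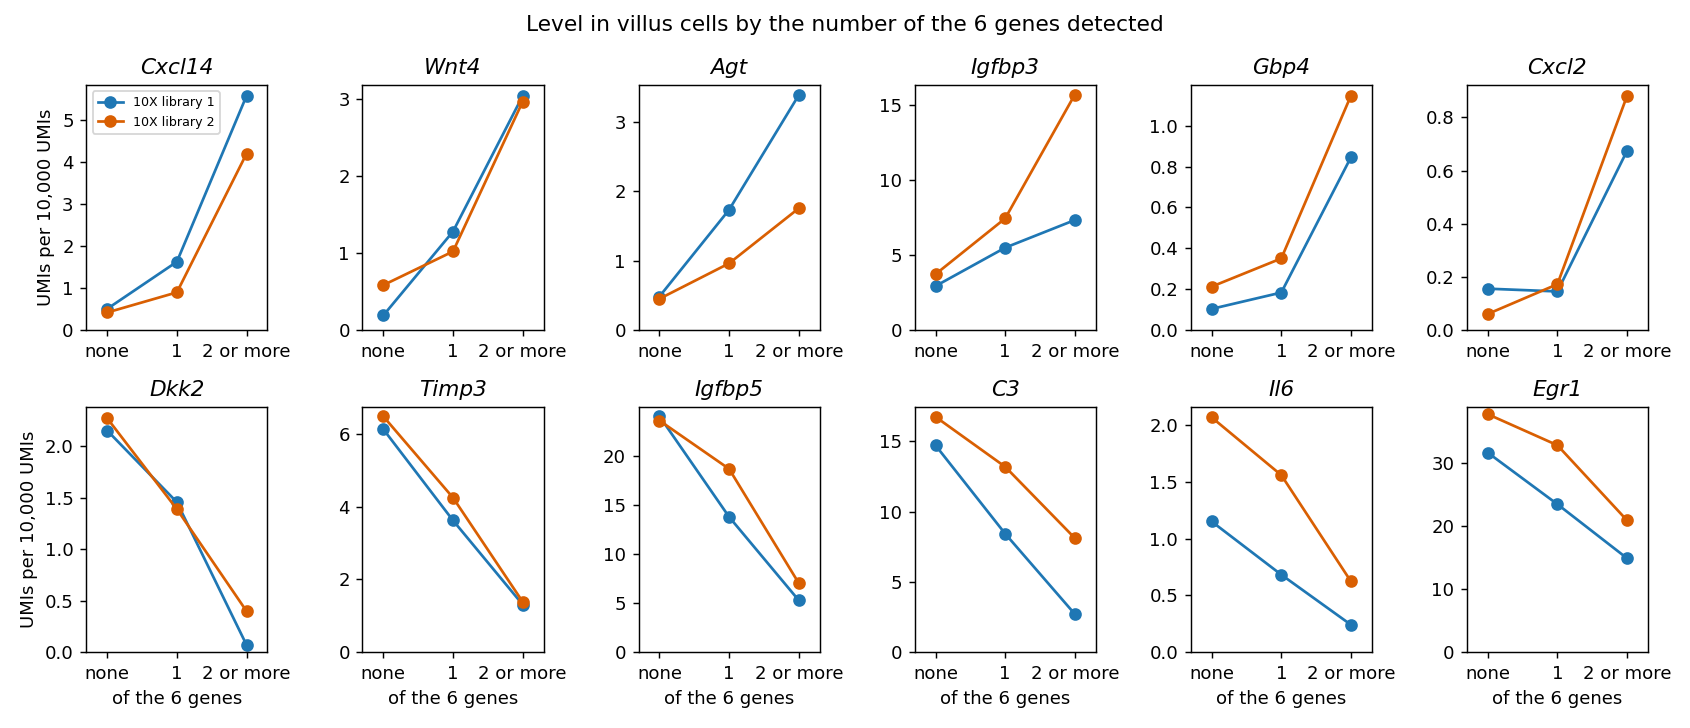
UMIs per 10,000 UMIs of 12 genes in villus cells with none, exactly 1 and 2 or more of the 6 genes, for each 10X library (points joined by library). The upper row rises from the negative to the 6-gene cells (Cxcl14 from 0.507 to 5.57 in library 1) and the lower row falls (Timp3 from 6.12 to 1.31), and the classes with exactly 1 gene lie between or near the lower of the other 2.

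Of 32 genes of the interferon response tested, 21 were higher, 2 were lower and 9 did not pass, against 15.8% of all genes higher, with a median log2 difference of 0.54. The guanylate-binding proteins, GTPases that act against intracellular microbes, had the largest values. Gbp4 stood at 0.846 and 1.15 UMIs per 10,000 against 0.104 and 0.213 (2.10 ± 0.15, SD, n = 2; limma adjusted p = 9.66e-06), Gbp9 at 0.876 and 0.80 against 0.0976 and 0.169 (2.02 ± 0.40; adjusted p = 3.02e-05), Gbp8 at 0.403 and 0.501 against 0.104 and 0.113 (1.40 ± 0.14; adjusted p = 8.5e-05) and Gbp5 at 0.655 and 0.865 against 0.286 and 0.289 (1.14 ± 0.24; adjusted p = 0.000271). Gbp genes are near copies of each other, and the gene models of Gbp4, Gbp8 and Gbp9 overlap on chromosome 5. Their values may therefore not be separate results. The peptide transporter gene Tap1 was at 1.77 and 2.15 against 0.911 and 1.24 (0.82 ± 0.10; adjusted p = 0.000271). Lower were Ifi27l2a (16.5 and 18.4 against 20.8 and 22.2) and Ly6a (3.68 and 4.54 against 4.90 and 5.71). Irf1, Isg15, Ifit2 and Ifit3 were among those that did not pass. Of 8 antigen presentation genes, 4 were higher (H2-DMa, H2-Q4, H2-Q6, H2-Q7), while the class II genes Cd74, H2-Aa and H2-Ab1 did not pass.

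Of 17 NF-kB response genes, 3 were higher, 5 lower and 9 did not pass (median −0.04), which is near the 15.8% and 17.4% of all genes for the higher ones and above it for the lower ones. Vcam1, an adhesion molecule for leukocytes, rose from 1.27 and 1.49 to 3.30 and 4.22 UMIs per 10,000 (1.37 ± 0.09, SD, n = 2; limma adjusted p = 1.77e-05). Icam1, another adhesion molecule, was lower (3.69 and 4.27 against 5.38 and 5.27; limma adjusted p = 0.0224). Sod2 was at 0.967 and 1.23 against 0.504 and 0.731 (0.75 ± 0.10; limma adjusted p = 0.000972), Nfkbie at 0.211 and 0.138 against 0.0748 and 0.0690 (0.66 ± 0.24; 0.00963) and Nfkbiz at 0.584 and 0.894 against 1.43 and 1.36 (−0.86 ± 0.43; 0.0036). In cells with no UMI of Hspa1a and Hspa1b these last 3 did not pass (adjusted p = 0.657, 0.526 and 0.269). Sod2 did not pass without the block (0.0572), nor Nfkbie with cells matched on total UMI (0.0796) or without the filter (0.0695). Nfkbie changed sign when cells were thinned to 2000 UMIs (−0.14).

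Of 14 cytokine genes, 1 was higher and 6 lower, against 15.8% and 17.4% of all genes (median −0.28). Il34, a ligand of the macrophage receptor CSF1R, was at 0.695 and 0.610 against 0.241 and 0.171 (1.31 ± 0.12; limma adjusted p = 9.52e-05). Il6 was at 0.242 and 0.623 against 1.15 and 2.07 (−1.73 ± 0.20; adjusted p = 1.32e-05), but in cells with no UMI of Hspa1a and Hspa1b its difference was −0.14 and did not pass (0.847). Il33, an alarmin released by damaged cells, was at 0.403 and 0.746 against 1.91 and 1.96 (−1.64 ± 0.51; adjusted p = 3.96e-05), and Tgfb2 at 1.42 and 1.77 against 3.72 and 3.02 (−1.04 ± 0.42; adjusted p = 0.000219). Of 10 complement genes tested, 6 were lower and 2 higher, against 17.4% and 15.8% of all genes (median −0.52). C3 stood at 2.71 and 8.11 UMIs per 10,000 against 14.7 and 16.7 (−1.72 ± 0.96, SD, n = 2; limma adjusted p = 0.000274), so that its level in library 1 was 0.184 of that in negative cells and in library 2 0.485. Of 6 acute phase and antimicrobial genes tested, Serpina3g, a protease inhibitor, was higher (0.534 and 0.623 against 0.0585 and 0.0462; 2.15 ± 0.22; limma adjusted p = 1.32e-05) and Serpina3n lower (0.322 and 0.785 against 1.01 and 1.29; −1.02 ± 0.53; 0.0012), though Serpina3n did not pass after thinning (adjusted p = 0.207) or without the block (0.0715). Its neighbour Serpina3f was at 0.252 and 0.623 against 0.0130 and 0.0308 (2.05 ± 0.59; limma adjusted p = 4.01e-05). Serpina3f met the filter through cells with the genes of the rule, and its difference depends on the pseudocount. The Serpina3 genes too are near copies.

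**Figure D4:**
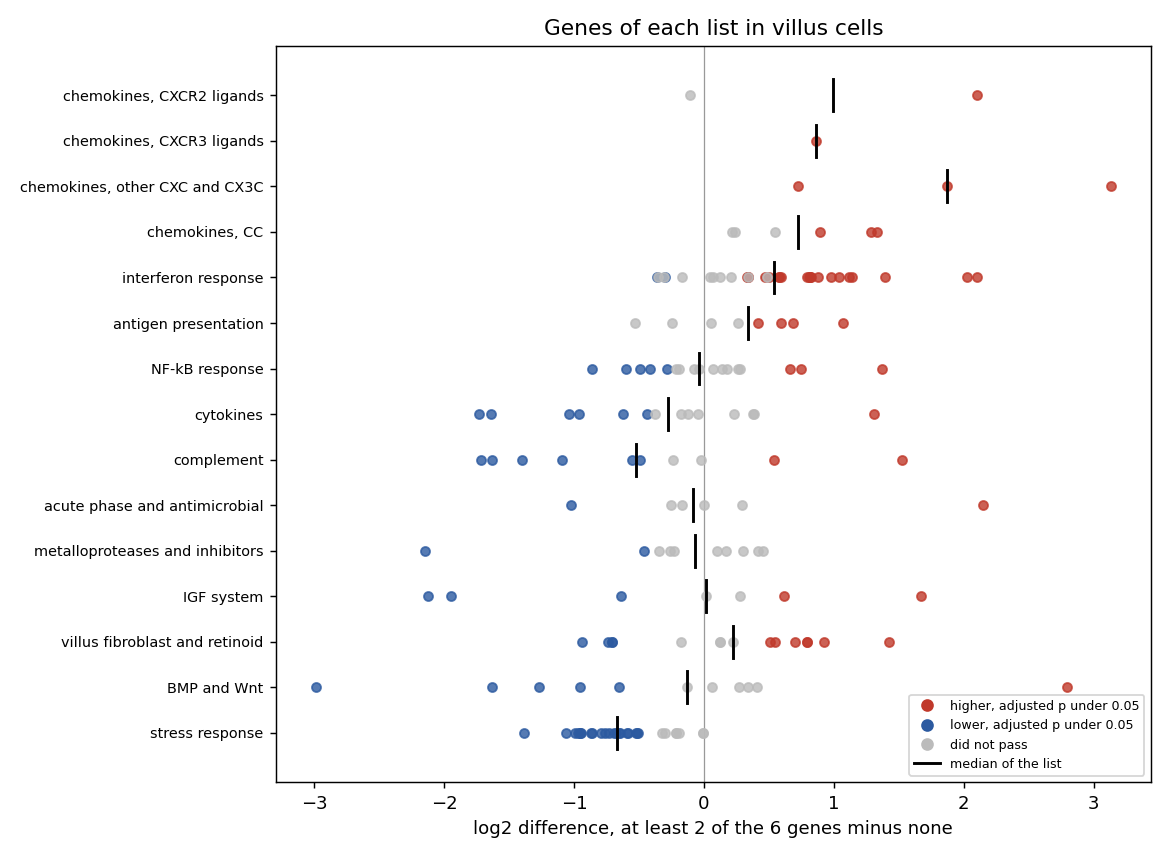
Log2 difference between 6-gene and negative villus cells (x axis, from log2(UMIs per 10,000 + 0.1)) for each tested gene of 15 lists, coloured by whether it passed the test, with a black bar at the median of the list. Of the interferon response genes 21 of 32 lie to the right as higher, and of the stress response genes 21 of 28 lie to the left as lower.

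Signals and receptors outside the immune lists were among the largest differences. Wnt4, a secreted Wnt ligand, rose from 0.192 and 0.585 to 3.04 and 2.97 UMIs per 10,000 (log2 difference 2.79 ± 0.90, SD, n = 2; limma adjusted p = 4.45e-05), whereas Dkk2, a secreted Wnt modulator of the Dickkopf family, fell from 2.15 and 2.27 to 0.0705 and 0.399 (−2.99 ± 1.04; adjusted p = 4.94e-05). Of 11 BMP and Wnt genes tested, Wnt4 was the only one higher, and 5 were lower, among them Dkk2, Chrd, Bmp2 and Rspo1, against 15.8% of all genes higher and 17.4% lower. Agt, which encodes angiotensinogen, was at 3.38 and 1.75 against 0.485 and 0.452 (2.16 ± 0.58; adjusted p = 1.85e-05). Unc5b, a receptor of netrin, was at 0.947 and 1.23 against 0.176 and 0.257 (1.91 ± 0.02; adjusted p = 1.32e-05), Itga8, an integrin chain, at 0.232 and 0.579 against 0.0228 and 0.0295 (1.91 ± 0.68; 0.000319), and Nrg1, a ligand of ERBB receptors, at 0.493 and 0.467 against 0.0455 and 0.0777 (1.85 ± 0.25; 6.9e-05). These higher genes were named because they were among the 12 largest differences in that direction.

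Igfbp3, listed as a marker of these cells but not used by the rule, binds insulin-like growth factors. It was at 7.33 and 15.7 UMIs per 10,000 against 2.94 and 3.73 (1.67 ± 0.53, SD, n = 2; limma adjusted p = 3.22e-05), and at 5.49 and 7.44 in cells with exactly 1 gene. Its relatives on the IGF system list that could be tested moved the other way. Igfbp5, the most abundant of these in negative cells, fell from 24.0 and 23.6 to 5.29 and 7.04 (−1.95 ± 0.31; adjusted p = 2.29e-06). Igfbp6 fell from 2.21 and 1.72 to 0.373 and 0.368 (−2.13 ± 0.23; adjusted p = 6.73e-06). Not all genes of the family are in the deposited table. Htra1, a protease that cleaves IGF-binding proteins, was at 3.30 and 3.22 against 2.02 and 2.18 (0.61 ± 0.10; 0.000952), and Stc2 at 1.36 and 1.30 against 2.53 and 1.77 (−0.63 ± 0.31; 0.00327). Neither passed after thinning (adjusted p = 0.0827 and 0.103). Igf1 did not pass.

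Of 10 metalloproteases and inhibitors tested, 2 were lower, none was higher and 8 did not pass (median −0.07, against 17.4% of all genes lower). Timp3, an inhibitor of metalloproteases, fell from 6.12 and 6.48 to 1.31 and 1.39 UMIs per 10,000 (−2.14 ± 0.00, SD, n = 2; limma adjusted p = 3.27e-07), at a ratio of 0.214 in each library. Among the other metalloproteases and inhibitors Adamts1 was at 1.40 and 1.97 against 2.3 and 2.37 (limma adjusted p = 0.0216) and had the opposite sign in cells with no UMI of Hspa1a and Hspa1b (0.073, adjusted p = 0.876). Timp1 was at 0.373 and 0.349 against 0.250 and 0.241 (adjusted p = 0.0554), and it passed with the filter at 5% (0.0402), centred on the median gene (0.0484) and with at least 3 genes required (0.0157). Fbln1 (fibulin 1) fell from 19.8 and 20.4 to 4.05 and 5.84 (−2.03 ± 0.34; limma adjusted p = 1.44e-06) and Mfap5, a microfibril protein, from 2.53 and 2.05 to 0.363 and 0.386 (−2.33 ± 0.26; 2.58e-06). Col8a1 was at 0.0604 and 0.107 against 1.5 and 0.632 (−2.57 ± 1.06; 6.9e-05) and Pcolce2, an enhancer of collagen processing, at 0.0403 and 0.0547 against 0.797 and 0.536 (−2.36 ± 0.45; 2.2e-05). Tnc (tenascin C) and Fn1 (fibronectin) were the 2 of 12 fibrillar matrix and fibroblast genes that were higher, at 6.75 and 8.13 against 3.90 and 5.27 and at 17.4 and 25.4 against 13.8 and 16.2, and 5 were lower, where 15.8% of all genes were higher and 17.4% lower. The remaining genes of largest decrease were Pianp, Nkain4, Pi16, Adgrg2 and Ebf1, a transcription factor. They stood at 0.0101 to 0.0504 in library 1 and 0.0678 to 0.164 in library 2, against 0.475 to 0.986 and 0.504 to 0.955 in negative cells. Pi16, Adgrg2 and Ebf1 rested on 1, 2 and 2 UMIs in library 1, and their fitted differences (−2.20, −2.16 and −2.05) depend on the pseudocount.

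Of 15 villus fibroblast and retinoid genes tested, 7 were higher and 4 lower, against 15.8% and 17.4% of all genes (median 0.23). Rdh10, which oxidises retinol, was at 3.20 and 3.73 UMIs per 10,000 against 1.15 and 1.31 (1.42 ± 0.03, SD, n = 2; limma adjusted p = 2.59e-05). Aldh1a3, which makes retinoic acid, was at 4.47 and 8.45 against 2.62 and 4.68 (0.79 ± 0.06; 0.000112), and Lrat, which stores retinol as ester, at 7.88 and 6.81 against 4.14 and 3.49 (0.93 ± 0.02; 3.54e-05). Aldh1a1 and Aldh1a2, relatives of Aldh1a3, did not pass (limma adjusted p = 0.47 and 0.252). Lower were Sfrp1, Ednrb, Edn3 and Rbp4. Of 7 prostaglandin genes tested, 3 were higher and 2 lower, and their median of −0.30 was above 0 in 4 alternatives (0.25 with the filter at 5% of villus cells, 0.082 after thinning, 0.11 in cells with no UMI of Hspa1a and Hspa1b and 0.011 without library 1). Ptgs1 (cyclooxygenase 1) was at 2.05 and 2.25 against 0.683 and 0.761 (1.45 ± 0.01; limma adjusted p = 1.65e-05) and Ptges at 1.80 and 2.0 against 0.914 and 0.873 (1.01 ± 0.14; 0.000139), while Ptgs2 did not pass. Lower were Hpgd, which degrades prostaglandins (0.0504 and 0.261 against 0.540 and 0.492; −1.40 ± 0.97; 0.00321), and the receptor gene Ptgfr (0 and 0.0209 against 0.130 and 0.0870; 0.0016). The genes of retinoid and prostaglandin handling were singled out after their values were seen.

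Immediate-early and heat shock genes were lower in the 6-gene cells. Of 28 stress response genes tested, 21 were lower and none was higher (against 17.4% of all genes lower; median −0.67; at an unadjusted p under 0.05 also none was higher). Egr1, an immediate-early transcription factor, was at 14.9 and 20.9 UMIs per 10,000 against 31.7 and 37.8 (−0.97 ± 0.16, SD, n = 2; limma adjusted p = 2.53e-05), and Hspa1a at 6.88 and 7.72 against 11.8 and 13.6 (−0.79 ± 0.02; 6.85e-05). Summed over the 29 genes of the list in the table, the level was 100.5 and 121 UMIs per 10,000 in 6-gene cells, 143 and 182 in cells with exactly 1 gene and 181 and 205 in negative cells. No UMI of Hspa1a and Hspa1b was found in 50.5% of 6-gene cells in library 1 (95% exact binomial interval 40.5% to 60.4%) and 26.5% in library 2 (22.8% to 30.4%), against 29.1% and 14.4% of the shallower negative cells. Among cells with no UMI of either gene (53 and 141 6-gene cells, 121 and 369 negative cells), 397 genes passed, 363 of them shared with the 677. Whether the stress response of single cells has a part in the other differences was not tested beyond this count. Such intervals cover counting error only.

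Markers of the cell types that the sort should remove, and of glia, were each below 1 UMI per 10,000 in summed level in both classes. The summed level of 10 immune markers was 0.121 and 0.130 UMIs per 10,000 in 6-gene cells against 0.208 and 0.222 in negative cells, that of 9 endothelial markers 0.211 and 0.308 against 0.221 and 0.226 and that of 7 glial markers 0.0504 and 0.0417 against 0.0228 and 0.132. The 11 epithelial markers stood at 0.201 and 0.795 against 0.182 and 0.237, so that they were higher in library 2, and 8 of the 11 had no UMI in the 6-gene cells of library 1 and 1 in library 2. None of the 5 genes of these lists that could be tested passed in limma (none at an unadjusted p under 0.05 either). Of the epithelial markers only Lgals4 was among them. Krt8 (0.159 against 0.0221 in library 2), Krt19 (0.141 against 0.0167) and Epcam (0.0417 against 0.00335) were too rare to be tested. They had no UMI in either class of library 1. The test therefore cannot speak to the epithelial excess in library 2. The part of these markers in the results was not tested beyond the counts that follow. With all cells left out that held a UMI of any of these markers, 652 genes passed, 595 of them shared. Without the cells of highest doublet score 688 passed, 666 of them shared. Of 6 smooth muscle markers 4 were lower (Actg2, Cnn1, Hhip, Myh11) and 1 higher (Synpo2), against 17.4% and 15.8% of all genes. The pericyte marker list summed to 7.65 and 14.1 against 22.4 and 27.0 UMIs per 10,000, most of it Rgs5, a regulator of G protein signalling (6.12 and 12.6 against 21.7 and 26.0; −1.42 ± 0.54; limma adjusted p = 5.64e-05), while Cspg4 and Notch3 were higher. Subepithelial markers summed to 4.64 and 5.2 against 5.01 and 6.61, and of 3 tested the transcription factor gene Foxl1 was higher (0.222 and 0.193 against 0.0585 and 0.0542) and Pdgfra lower (3.04 and 3.56 against 3.96 and 5.18). The immunoglobulin genes, looked at after their values were seen, differed by library: Igha had a log2 difference of −6.85 in library 1 and 0.29 in library 2 (limma adjusted p = 0.0726) and Igkc of −6.44 and 0.49 (0.0911). Of 5 cell cycle genes Mcm2 and Mcm5, which license replication, were higher (0.161 and 0.0991 against 0.0423 and 0.0690, and 0.141 and 0.0495 against 0.0130 and 0.0187), against 15.8% of all genes, and Mcm5 met the filter through cells with the genes of the rule.

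Of a selection of the genes above, levels were compared between 6-gene cells that held only genes of the Mmp10 trio and those that held only genes of the chemokine trio. These groups were formed after the values were seen and are described without a test. Cells with only Mmp10, Sertm1 or P2rx1 held Cxcl14 at 8.11 and 5.97 UMIs per 10,000, Wnt4 at 4.16 and 5.11, Agt at 4.72 and 2.49 and Unc5b at 1.38 and 1.81. Cells with only Cxcl9, Cxcl5 or Saa3 held less of them: Cxcl14 at 1.35 and 0.638, above the 0.507 and 0.421 of negative cells, Wnt4 at 0.271 and 0.383, Agt at 0.451 and 0.510 and Unc5b at 0.271 and 0.287.

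Cxcl10, Ccl2 and Cxcl2 showed the opposite order. Cxcl10 was at 14.1 and 13.3 UMIs per 10,000 in cells with only Cxcl9, Cxcl5 or Saa3, at 2.15 and 2.96 in cells with genes of both trios and at 0.0492 and 0.736 in cells with only Mmp10, Sertm1 or P2rx1, below the 1.55 and 1.92 of negative cells. Ccl2 fell in the same order, from 19.5 and 16.8 over 5.05 and 3.40 to 0.0983 and 0.569. For Cxcl2 the values were 4.42 and 2.3, then 0.379 and 0.919, then no UMI in library 1 (a count of 0 allows up to 0.0738) and 0.0753 in library 2. Ccl11 stood apart from this split, with 14 and 11 in the cells of the chemokine trio and 11.9 and 10.5 in those of the Mmp10 trio.

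Timp3, Igfbp5, C3, Egr1 and Hspa1a had lower levels in the cells of the Mmp10 trio than in those of the chemokine trio. In cells with only these genes Timp3 was at 0.197 and 0.426 UMIs per 10,000, Igfbp5 at 2.21 and 2.88, C3 at 0.221 and 1.92, Egr1 at 7.89 and 10.4 and Hspa1a at 3.32 and 3.04. In cells with only Cxcl9, Cxcl5 or Saa3 Timp3 was at 5.86 and 3.56, Igfbp5 at 13 and 15.5, C3 at 13.6 and 24.9, Egr1 at 38.2 and 40.7 and Hspa1a at 16.9 and 15.4, and the last 3 of these genes lay close to negative cells or above them. Vcam1 and Gbp4 were above negative cells in all 3 kinds: Gbp4 was at 0.738 and 0.761 in the Mmp10 trio, 0.736 and 1.28 in cells with genes of both and 1.71 and 1.47 in the chemokine trio.

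**Figure D5:**
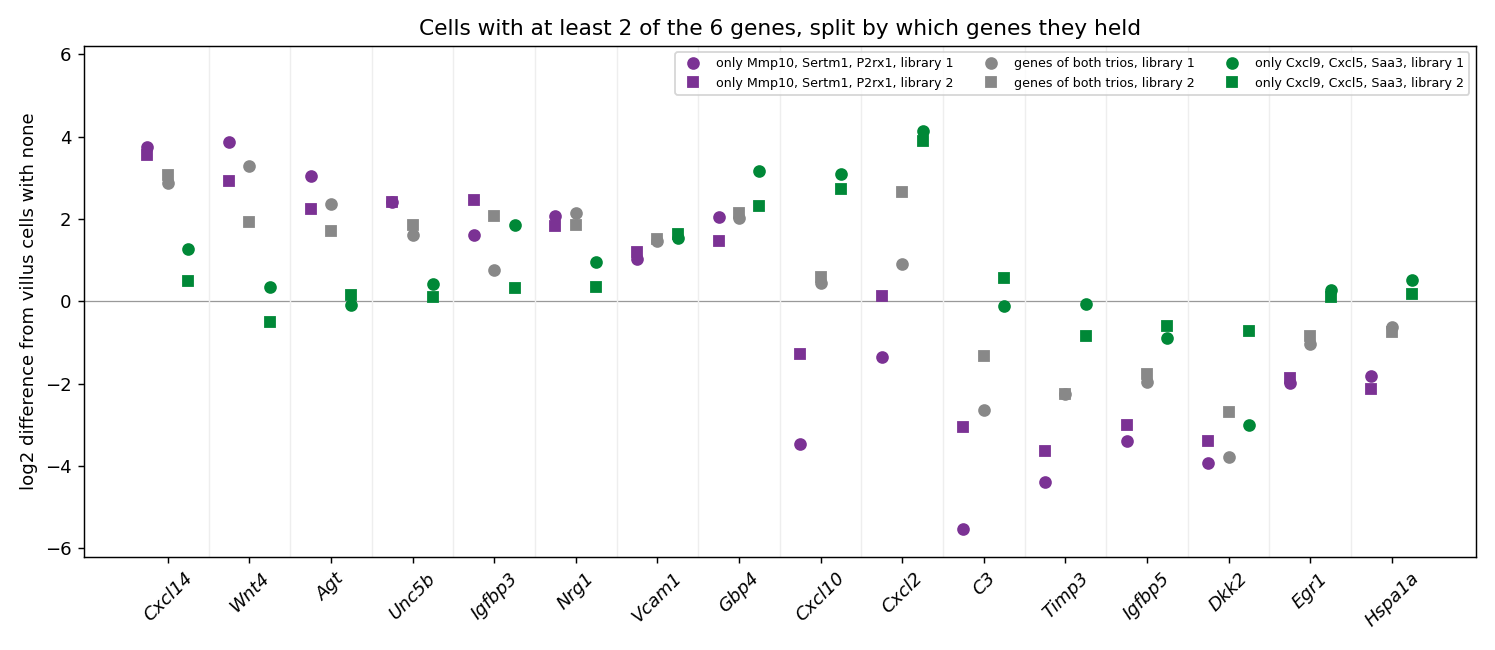
Log2 difference from negative villus cells (y axis, from log2(UMIs per 10,000 + 0.1)) for 6-gene cells that held only Mmp10, Sertm1 or P2rx1, genes of both trios, or only Cxcl9, Cxcl5 or Saa3, in 10X library 1 (circles) and 2 (squares). Cxcl14, Wnt4, Agt and Unc5b are highest in the first kind, and Cxcl2 and Cxcl10 in the last (Cxcl10 14.1 and 13.3 against 0.0492 and 0.736 UMIs per 10,000).

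Cells just outside the rule, with exactly 1 gene, showed this order for Cxcl14, Wnt4, Agt, Unc5b and Timp3 in both libraries, for Cxcl10 in library 2 and for Ccl2 in library 1. In library 2, Cxcl14 was at 1.57, 1.47 and 1.68 UMIs per 10,000 in cells whose gene was Mmp10, Sertm1 or P2rx1 (100, 158 and 63 cells) and at 0.629, 0.606 and 0.408 in those with Cxcl9, Cxcl5 or Saa3 (181, 349 and 50 cells), against 0.421 in negative cells. In library 1 the values were 2.20, 3.28 and 3.69 against 0.798, 1.05 and 0.209 (16, 23, 16, 35, 61 and 6 cells). Timp3 stood at 3.44, 2.09 and 1.51 for the Mmp10 trio in library 2 and at 5.86, 4.29 and 8.42 for the chemokine trio (2.60, 1.42 and 1.26 against 5.42, 3.67 and 8.38 in library 1). Cxcl10 in library 2 was at 1.36, 1.32 and 1.24 against 7.10, 3.12 and 1.57, but in library 1 it was at 5.02 in cells with only P2rx1 against 1.40 in those with only Cxcl5. Ccl2 in library 2 was at 2.17 with only Mmp10 against 1.07 with only Saa3, and Cxcl2 kept the order in neither library. By the number of genes held, which also goes with depth (medians of 9288, 10564 and 11135 UMIs in library 1), the genes differed. With 2, 3 and at least 4 genes Cxcl14 was at 4.86, 6.19 and 7.65 in library 1 and 2.42, 5.59 and 7.30 in library 2, and Gbp4 at 0.487, 1.33 and 1.37 and at 0.72, 1.24 and 2.46. Wnt4 was highest with 3 genes (2.04, 4.86 and 3.04 in library 1 and 2.23, 3.94 and 3.35 in library 2).

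The share of villus cells that met the rule was 15.5% in library 1 (95% exact binomial interval 12.8% to 18.4%) and 13.3% in library 2 (12.3% to 14.4%). It rose with depth, from 7.52% and 8.33% in the shallowest of 3 equal groups of villus cells by total UMI to 24.8% and 18.7% in the deepest. Thinned to 2000 UMIs, 6.02% and 5.86% of villus cells met it, and with at least 3 genes asked for 6.05% and 5.80% did. Outside the villus cells at least 2 of the 6 genes were found in 3.36% and 4.56% of cells with Grem1 (the crypt side; medians of 8442 and 6780 UMIs, against 7676 and 5819 in villus cells) and in 2.17% and 4.12% of cells with Sox6. The shares were 5.44% and 6.78% in cells with at least 3 smooth muscle markers (medians of 11872 and 9494 UMIs), and 0 of 9 and 5.13% of 78 cells with at least 3 immune markers. Of 115 cells with at least 3 glial markers in library 2, which should lack these genes, 1 (0.870%, interval 0.0220% to 4.75%) held 2 or more, at a median of 5194 UMIs. No Sertm1 or P2rx1 UMI was found in these 115 cells, for which the interval reaches 3.16% of cells, whereas 11.4% and 8.30% of villus cells held one. Saa3 was found in 5.22% of them and in 2.85% of villus cells of library 2, and Cxcl5 in 4.35% and 15.1%, so that the share of villus cells with Saa3 was not above this background.

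To ask whether the pattern differed outside the villus, the same contrast was made in cells with Grem1, of which 25 and 167 held at least 2 of the 6 genes. In a single limma model over both compartments the difference itself differed for 39 of 2171 genes (1.8%), 9 (0.415%) in the direction of the villus and 30 (1.38%) in that of Grem1 cells. No gene passed in this test without the library as a block (221 at an unadjusted p under 0.05), 1 passed after thinning, 5 without a filter on low genes and 68 with a pseudocount of 1. Lower in the villus contrast were Rgs5, Hhip and Serpina3n, with the chitinase-like gene Chil1 (villus 0.101 and 0.203 against 0.0618 and 0.0656 in negative cells; Grem1 cells 1.44 and 1.67 against 0.140 and 0.180). Igfbp5 (−1.42 ± 0.17; limma adjusted p = 0.0161) and Timp3 (−1.17 ± 0.29; 0.0357) fell more in villus cells. Cxcl14, Wnt4, Gbp4 and Igfbp3 did not pass in this test (adjusted p = 0.25, 0.47, 0.28 and 0.711), and in Grem1 cells Cxcl14 was at 1.59 and 1.27 with at least 2 genes against 0.171 and 0.245 with none.

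On GRCm38, as annotated in GENCODE M21, Cxcl14 lies on chromosome 13 (56288643 to 56296551), Wnt4 on chromosome 4 (137277489 to 137299726), Igfbp3 on chromosome 11 (7206086 to 7213923), Dkk2 on chromosome 3 (132085292 to 132180304) and Timp3 on chromosome 10 (86300372 to 86349506). Of the genes of the rule, Mmp10 lies on chromosome 9 (7502352 to 7510240), Sertm1 on chromosome 3 (54897068 to 54915887), P2rx1 on chromosome 11 (72999103 to 73015200) and Saa3 on chromosome 7 (46711998 to 46715700). Cxcl5 lies on chromosome 5 (90759360 to 90761624), Cxcl9 on chromosome 5 (92321347 to 92328079), Cxcl10 on chromosome 5 (92346638 to 92348889) and Cxcl2 on chromosome 5 (90903871 to 90905938), all on the same chromosome. The starts of these gene models differ in places from the RefSeq starts that the promoter sequences use.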

How the data were processed

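Libraries of 2 kinds were deposited from sorted stromal cells of mouse small intestine, 2 10X Genomics libraries and 2 Smartseq2 plates. The authors aligned the 10X reads with Cell Ranger 3.1.0 (mm10, GRCm38), filtered cells and normalised in Seurat, and deposited natural log values, ln(1 + UMI share of the cell × 10000), for 3891 complete gene rows (1 row was cut short and not used). The 739 Smartseq2 columns hold corrected values and were not used. UMIs were recovered from the log values, and 100% came out whole within 0.01. The table holds no mitochondrial gene.

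The cells, gene lists and tests were chosen with earlier results of these data known. UMIs were summed per library and class (6-gene, exactly 1 gene, negative) and log2(UMIs per 10,000 + 0.1) was fitted in limma 3.58.1 (R 4.3.3) with the library as a block, 2 residual degrees of freedom, a trend in the prior variance and Benjamini-Hochberg adjustment over all genes tested at 0.05. The block is by design, since both classes come from the same library. Genes with a UMI in at least 1% of villus cells of each library were tested, and genes of the rule were left out of the counts. All p-values in the text come from limma. The count test planned for a table of counts was not run, since the deposited values are logs, although the UMIs recovered from them were whole. On simulated data of 2053 genes the fit recovered 43% of genes changed by 1 on the log2 scale and 89% of those changed by 2, with 0% false calls. The simulation gave all cells the same depth and did not select cells by detected genes. Its noise was smaller than the SD between libraries of many genes named above. These shares therefore do not carry over to the real comparison. Cells were not filtered further, and Scrublet (scanpy 1.11.5) scores served for an alternative without the highest scores (2.04% and 11.5% of cells). Named genes were those of the rule with Igfbp3, the passing genes of the lists on chemokines, acute phase, metalloproteases, interferon, NF-kB, cytokines and the IGF system (in lists of over 8 tested genes, the 4 of largest difference), the 12 largest differences in each direction, and the 5 largest in each direction against Grem1 cells. Other genes were named after their values were seen. Alternatives covered the pseudocount, the filter, the scale, depth, doublets, stressed cells, other cell type markers, the number of genes required and the block. Results for some genes that the rule would name are not reported here.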

Additional observations from a re-analysis of the deposited data

Results flagged for a closer look

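For 39 of 2171 genes the difference between cells with at least 2 and with none of the 6 genes was itself different between villus and Grem1 cells, by an interaction term in limma. Among the largest excesses in the villus were Lcp2 (1.29 on the log2 scale, adjusted p = 0.0365), Myof (1.24, 0.0365), Kcnj5 (1.22, 0.0161) and Col13a1 (1.06, 0.0161). Lcp2 and Kcnj5 (in both libraries) and Col13a1 (in library 1) had a UMI in under 1% of negative villus cells, so that they met the filter through the cells where they are high, and their excess is in part fixed by it. Lcp2 stood at 0.312 and 0.271 UMIs per 10,000 in 6-gene villus cells against 0.00976 and 0.0201 in negative ones, and at 0.0388 and 0.0469 against 0 and 0.00559 in Grem1 cells, where the higher values rested on 1 and 7 UMIs. Among the largest excesses in Grem1 cells were Chil1 (−2.08, limma adjusted p = 0.00777), Hhip (−1.93, 0.00777), Rgs5 (−1.89, 0.0161) and Serpina3n (−1.64, 0.0244). Rgs5 stood at 27.2 and 25.2 UMIs per 10,000 in Grem1 cells with at least 2 of the genes against 17.9 and 19.8 with none, whereas in villus cells it stood at 6.12 and 12.6 against 21.7 and 26.0. Serpina3n stood at 3.18 and 3.02 against 1.89 and 2.11 in Grem1 cells.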

How the results depend on the processing

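The limits are 2 libraries of unknown numbers of mice, a table that covers 22.6% to 23.6% of the UMIs, and a rule that deeper cells meet more often. Against 677 genes that passed between 6-gene and negative cells, 260 passed with cells thinned to 2000 UMIs (1561 genes tested), 397 in cells with no UMI of Hspa1a and Hspa1b and 407 with no replicate block, that is, without the pairing of both classes by library. The other alternatives gave 473 to 724. Against 39 genes in the comparison with Grem1 cells, 68 passed with a pseudocount of 1, 60 without the highest doublet scores, 12 with cells matched on total UMI (chosen after seeing the data), 5 without a filter, 1 after thinning and 0 without the replicate block (221 at an unadjusted p under 0.05). The mean share of 6-gene cells among villus cells, 14.4%, was 19.9% with Lpl and Fgfr2 both required, 5.94% after thinning and 5.92% with at least 3 genes, and 13.3% to 15.5% when either library was left out. Of 743 results for named genes under alternatives 741 kept their direction. Most of these genes were named because they passed or had the largest differences, and the alternatives reuse the same libraries. The count is therefore largely fixed by the choice of genes. Adamts1 changed to 0.073 in cells with no UMI of Hspa1a and Hspa1b, and Nfkbie to −0.14 after thinning; the causes were not tested. The median of the CXCR2 ligand list, 1.00 over 2 genes, was −0.42 in cells with no UMI of Hspa1a and Hspa1b and −0.11 with the filter at 5% of villus cells. Leaving out a library leaves values without a test.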
